A study of Mus musculus and Rattus norvegicus with 30 samples.

Results

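The genes described are 10 transcription factors that set the identity of somatosensory neurons: Isl1, Pou4f1, Pou4f2, Prdm12, Drgx, Runx1, Runx3, Etv1, Shox2 and Maf. They were chosen by name through the gene symbols that accompany the counts, and they are 10 of 54315 features counted in mouse and 10 of 39281 counted in rat dorsal root ganglion (DRG). In mouse, Drgx is listed under its older symbol, Prrxl1. All 10 passed the filter on low counts in mouse. In rat 5 passed it (Isl1, Prdm12, Runx3, Etv1 and Shox2), and Pou4f1, Pou4f2, Drgx, Runx1 and Maf are listed at 0 in all 8 libraries.

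RNA was sequenced from the DRG, which holds the cell bodies of somatosensory neurons, after nerve injury or sham surgery. Adult mice of 2 inbred strains, BALB/c and B10.D2, had spared nerve injury (SNI), which severs the common peroneal and sural branches of the sciatic nerve but not the tibial one, or sham surgery with the nerve only exposed, and L3 and L4 DRG of 1 animal made 1 library at 28 days. BALB/c had 6 sham and 4 SNI libraries and B10.D2 had 5 of each, with males and females in every group. Male Wistar rats had spinal nerve transection (SNT) of the left L5 nerve or sham surgery, L5 DRG of 3 animals were pooled into 1 library at 21 days, and each group had 4 libraries. Because SNI spares the tibial branch and leaves part of the neurons uninjured, and because L5 in rat lost its whole nerve, the models differ in species, injury, ganglion, time and library type (ribosome-depleted in mouse, polyadenylated in rat), and these cannot be told apart. Sample 59 among the B10.D2 shams and sample 66 among the injured BALB/c mice were not analysed here.

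Sensory neurons acquire their types through a succession of such factors. Isl1, a LIM homeodomain protein, and the POU homeodomain protein Pou4f1 mark nearly all newborn sensory neurons and close their neurogenic programme. Pou4f2 is a POU homeodomain protein of the same family as Pou4f1. Prdm12 and the paired homeodomain protein Drgx act in the nociceptor lineage. The RUNX proteins divide the lineages further, with Runx1 in non-peptidergic nociceptors and Runx3 in proprioceptors, and the ETS protein Etv1, the homeodomain protein Shox2 and the leucine zipper protein Maf act in proprioceptors and low-threshold mechanoreceptors, which sense muscle stretch and touch. These genes stay on in the adult ganglion. Their RNA in whole DRG reflects how many neurons of a type are present and how much each makes. Any RNA of these genes from other cells of the ganglion is not separated from it.

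The mouse libraries held 30.0 to 41.9 M counts each (M for mega) and the rat ones 11.95 to 17.9 M. A mouse library carries the number of its title. The rat libraries of a group carry the numbers 1 to 4, given in accession order and used only as names. Levels are given as counts per M library counts (CPM), which were corrected for library composition. A change is called where the edgeR adjusted p is under 0.05 over all features tested. All 11 neuron markers examined had counts in mouse, and 6 of the 10 listed in rat (Rbfox3, Tubb3, Uchl1, Nefl, Nefm and Nefh) are at 0 in every rat library, as are the 5 genes named above. The assembled rat long noncoding RNAs lie on chromosomes 1 to 9, X and Y alone. A rat 0 therefore cannot be told apart from a gene that was left out of the counting, and no limit on its level is given. In rat, sham 4 and SNT 1 stood apart from their groups. On the first principal component (71.5% of the variance) they lay at -6.33 and 1.09, between the remaining shams, at -48.7 to -35.7, and the remaining SNT libraries, at 30.6 to 49.9. The injured neuron markers sum to 756 CPM in sham 4 and to 303 to 339 CPM in the other shams. In SNT 1 they sum to 1020 CPM, against 1137 to 1490 CPM in the others. In mouse, B10.D2 SNI 76 had 341 CPM of these markers, against 570 to 671 CPM in the other B10.D2 SNI libraries.

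The start regions of 4 of the genes are shown, Etv1 and Shox2 because they fell after injury in both mouse strains and in rat, and Runx1 and Runx3 because they share an arrangement of sites. Each run covers 250 bases before to 50 after a transcription start in RefSeq on GRCm38.p6, on the strand of the gene. Of the 10 genes 9 had an entry, and Maf had none. Capitals mark every match to 5 motifs searched on both strands: the RUNX core TGTGGT, the homeodomain core TAATTA, the AP-1 site TGANTCA, the octamer ATGCAAAT and the MAF element TGCTGA. The windows lie at chr12:38779832-38780131 (plus strand), chr3:66981722-66982021 (minus strand), chr16:92826025-92826324 (minus strand) and chr4:135120395-135120694 (plus strand).
Etv1: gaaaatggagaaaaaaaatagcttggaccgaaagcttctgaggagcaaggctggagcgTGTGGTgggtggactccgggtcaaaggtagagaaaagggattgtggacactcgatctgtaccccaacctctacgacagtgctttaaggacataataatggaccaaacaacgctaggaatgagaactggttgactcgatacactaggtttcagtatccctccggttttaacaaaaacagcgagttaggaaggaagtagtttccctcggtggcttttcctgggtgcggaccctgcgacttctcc
Shox2: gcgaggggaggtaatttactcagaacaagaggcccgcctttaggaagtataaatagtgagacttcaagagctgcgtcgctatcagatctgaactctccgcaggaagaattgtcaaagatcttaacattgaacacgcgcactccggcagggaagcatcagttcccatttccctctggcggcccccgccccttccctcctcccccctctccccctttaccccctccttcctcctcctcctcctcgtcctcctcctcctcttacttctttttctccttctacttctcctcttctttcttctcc
Runx1: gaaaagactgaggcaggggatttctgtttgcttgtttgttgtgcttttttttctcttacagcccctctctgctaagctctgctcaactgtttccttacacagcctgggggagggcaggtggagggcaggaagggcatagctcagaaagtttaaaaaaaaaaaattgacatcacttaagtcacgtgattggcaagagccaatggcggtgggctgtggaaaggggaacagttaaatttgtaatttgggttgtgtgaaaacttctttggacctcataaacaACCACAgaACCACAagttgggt
Runx3: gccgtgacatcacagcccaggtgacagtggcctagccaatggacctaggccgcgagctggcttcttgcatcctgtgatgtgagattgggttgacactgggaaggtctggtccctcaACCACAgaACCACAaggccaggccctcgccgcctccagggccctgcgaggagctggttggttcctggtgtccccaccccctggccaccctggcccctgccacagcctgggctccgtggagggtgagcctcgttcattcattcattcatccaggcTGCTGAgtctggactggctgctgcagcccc
The Etv1 window shown held 1 RUNX core and the Shox2 window held none of the 5 motifs. Runx1 and Runx3 each have 2 start windows in RefSeq. The ones shown each held 2 RUNX cores in the same direction and 2 bases apart, and the other window of each gene, at chr16:92697280-92697579 and chr4:135152295-135152594, held 0. Among 32851 windows of all genes, 16.8% held at least 1 RUNX core, and 7 (0.0213%) held such a pair, which was looked for after the matches had been seen. The other motifs were in 5.29% (homeodomain core), 7.81% (AP-1 site), 1.74% (octamer) and 19.5% (MAF element) of windows. No window of a member held the homeodomain core, the AP-1 site or the octamer, and the MAF element was in the Runx3 window shown, in that of Pou4f2 and in that of a further Etv1 start, which is not shown. A match is a description of letters and was not tested as a binding site.

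The first comparison was the level of each factor in the uninjured ganglion, per kb of merged exons, to allow for gene length. The merged length takes in every annotated exon, so a gene read mainly from shorter transcripts is set too low. The order below holds for this measure only. In BALB/c sham, Pou4f1 stood highest at 19.3 ± 2.41 CPM per kb (SD, n = 6), followed by Isl1 at 18.5 ± 1.65, Drgx at 17.3 ± 1.52 and Prdm12 at 13.6 ± 2.74. Each of these 4 overlapped its neighbour in the order across libraries. Maf at 9.28 ± 0.974 CPM per kb overlapped Prdm12 by its highest library alone, and lay above Runx1 (6.202 ± 0.916) and Shox2 (6.15 ± 0.718), which overlapped each other. Etv1 followed at 4.53 ± 0.291, Pou4f2 at 2.07 ± 0.350 and Runx3 at 0.484 ± 0.0764 CPM per kb, each with no overlap with the gene above it. In B10.D2 sham, Isl1 moved to the top at 25.5 ± 0.447 CPM per kb (SD, n = 5) and lay above every Pou4f1 library (21.6 ± 1.38), while Runx1 (7.10 ± 0.474) and Maf (7.05 ± 0.768) overlapped. Runx3 was the lowest member in all 4 mouse groups and rested on 48 to 106 counts per library.

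**Figure D1:**
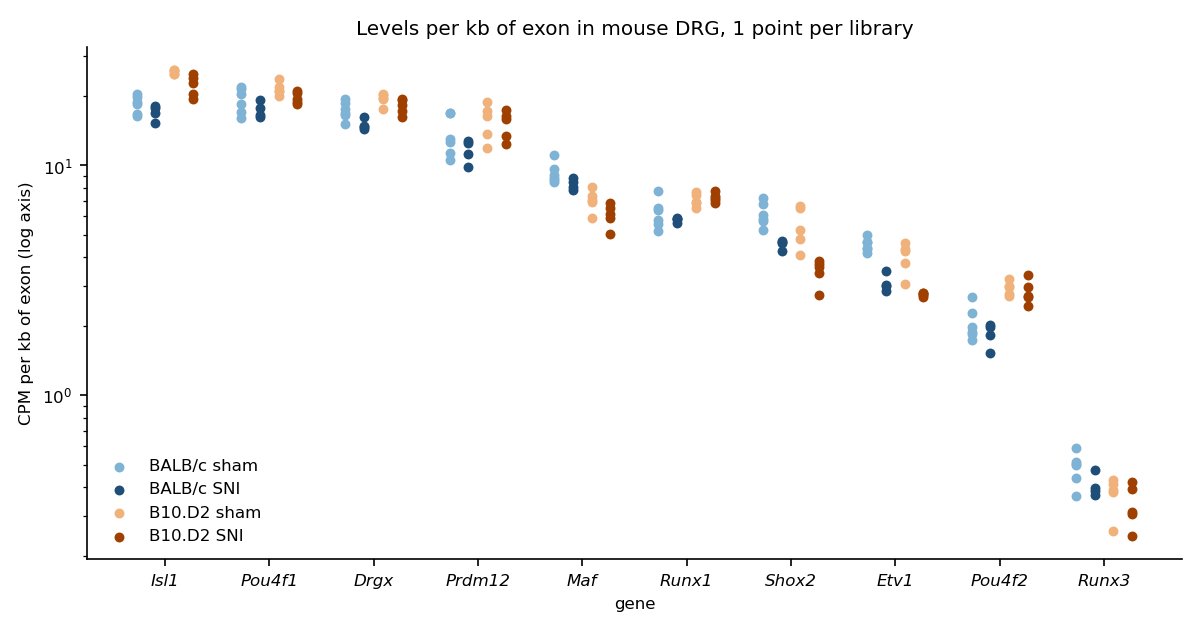
CPM per kb of exon (log axis) of the 10 genes in the 20 mouse libraries, 1 point per library, coloured by strain and surgery. Isl1, Pou4f1, Drgx and Prdm12 lie highest, and Runx3 lies at or below 0.591 CPM per kb in every library.

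The main question was how these factors change after nerve injury. In mouse, Etv1 and Shox2 fell in both strains, and in rat Etv1, Isl1, Prdm12 and Shox2 fell. In BALB/c, 2 of 10 members were called, both lower, where 9.69% of all features were called and 4.87% were called lower. In B10.D2, 2 of 10 were called, both lower, against 4.58% of all features called and 2.48% called lower. In rat, 4 of the 5 tested were called lower, against 27.4% of all features called and 15.1% called lower. The members' median on the log2 scale was -0.18 (BALB/c) and -0.15 (B10.D2), with medians over all features of 0.0033 and 0.0076. All 10 estimates in BALB/c and 9 of 10 in B10.D2 were below 0. In rat the median over the 5 members was -1.04, against 0.0027 over all features. The rat count rested on single libraries. The members called lower were Etv1 and Isl1 without sham 1, and Etv1 alone without sham 2, sham 3, SNT 2, SNT 3 or SNT 4. Without sham 4 and SNT 1 together 4 were called lower, where 43.9% of all features were called and 22.8% were called lower. This pair was chosen after the data were seen, as lying between the groups. Leaving it out tends to widen differences by that choice, so results without it are no added support.

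**Figure D2:**
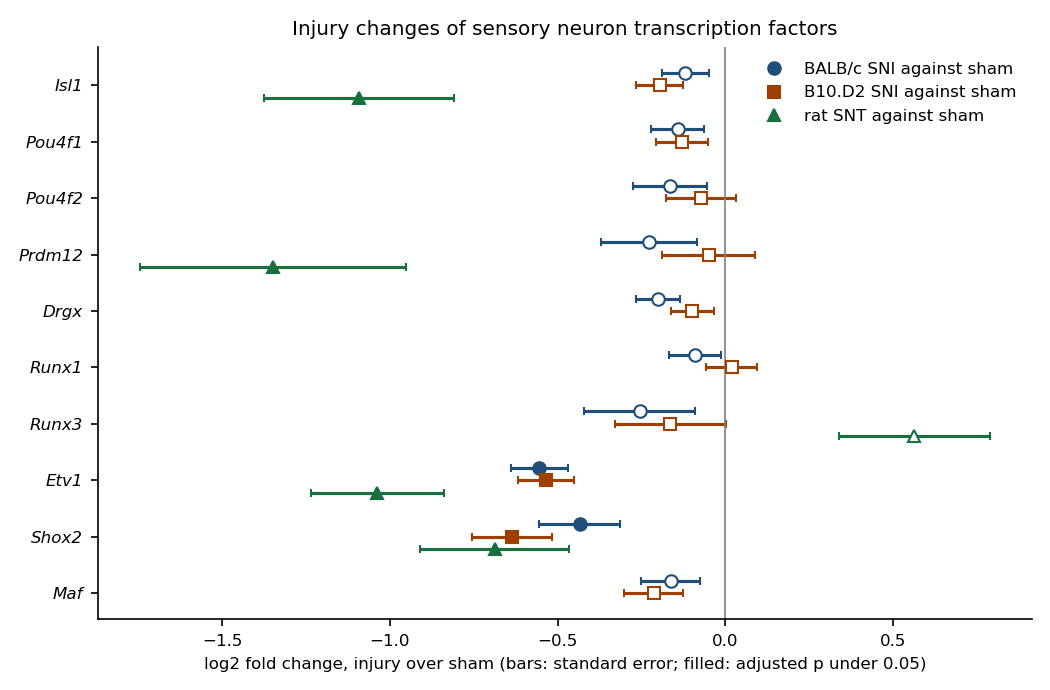
Log2 fold change of injury over sham with its standard error for each gene, in BALB/c (circles), B10.D2 (squares) and rat (triangles), with filled symbols for an adjusted p under 0.05. Etv1 and Shox2 are filled in all 3 comparisons, at -0.55, -0.53 and -1.04 for Etv1, and the largest positive estimate is that of Runx3 in rat, at 0.56.

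Etv1 (ENSMUSG00000004151, chr12:38779380-38870484 on GRCm38, plus strand) encodes an ETS factor that proprioceptors need to connect with motor neurons. In BALB/c sham its level ran from 55.3 CPM through a median of 60.1 to 66 CPM, and in BALB/c SNI it was 46.3, 40.3, 39.6 and 37.9 CPM. Every SNI library lay below every sham library. Etv1 fell by 31.9% (log2 fold change -0.55, SE 0.084, edgeR adjusted p = 0.00016). In B10.D2 sham it was 56.3, 61.1, 50.2, 57.6 and 40.7 CPM, and in B10.D2 SNI 36.7, 36.3, 37.0, 36.9 and 35.7 CPM. The SNI libraries lay closely together and the groups did not overlap, although sham 88, at 40.7 CPM, lay close to the SNI values. Etv1 fell by 31.0% in B10.D2 (log2 fold change -0.53, SE 0.082, edgeR adjusted p = 0.00038). B10.D2 SNI 76, the library with the lowest injured neuron markers of its group, was not apart in Etv1.

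In rat, Etv1 was 399, 456, 394 and 264 CPM in sham 1, 2, 3 and 4, and 245, 177, 168 and 148 CPM in SNT 1, 2, 3 and 4. The groups did not overlap, and the libraries nearest to each other were sham 4 and SNT 1. Etv1 fell by 51.3% (log2 fold change -1.04, SE 0.198, edgeR adjusted p = 0.0115). Without sham 4 and SNT 1 the log2 fold change was -1.34 (edgeR adjusted p = 7.30e-05). They were the lowest sham and the highest SNT library, chosen after the data were seen, and leaving them out widens the difference by itself. No other member tested in rat was without overlap between the groups, and the share of all features without overlap is not given here. Etv1 was called in all 25 alternatives run in each mouse strain and in all 13 run in rat.

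**Figure D3:**
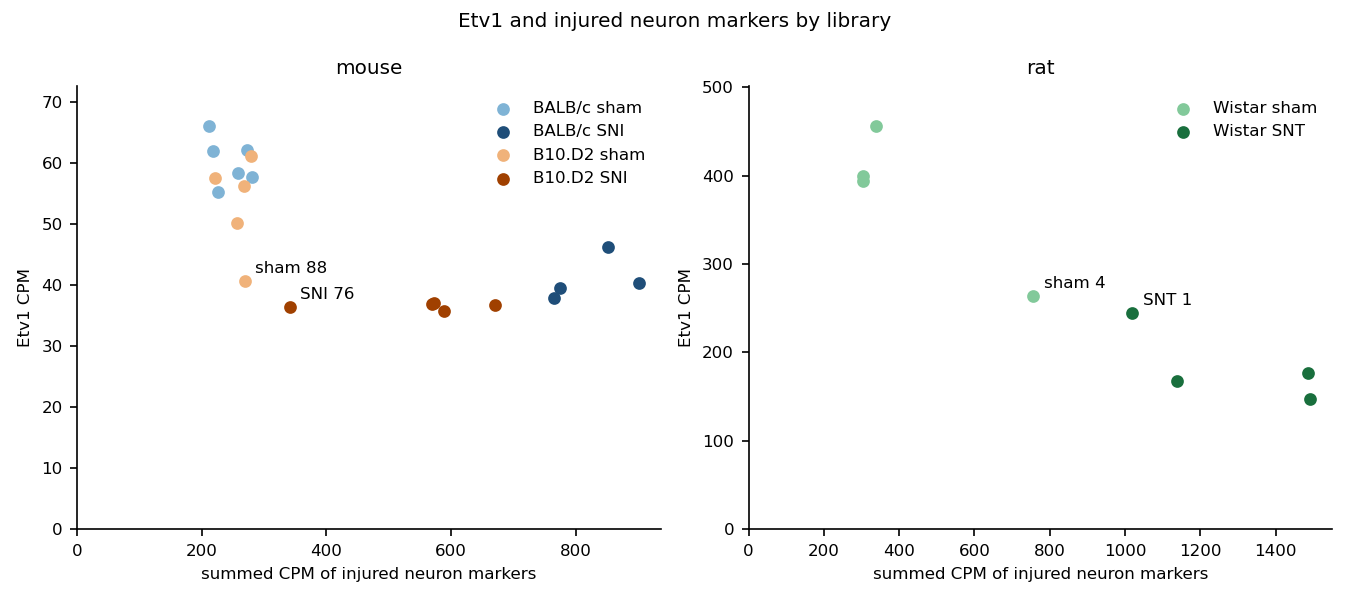
Etv1 CPM against the summed CPM of the injured neuron markers in each mouse library (left) and each rat library (right), coloured by group, with 4 libraries labelled. B10.D2 sham 88 is low in Etv1 at 40.7 CPM with sham levels of the markers (269 CPM), and rat sham 4 and SNT 1 lie between the other sham and SNT libraries.

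Shox2 (ENSMUSG00000027833, chr3:66971727-66981771, minus strand), a homeodomain factor of touch neurons, ran from 17.4 CPM through a median of 19.8 to 23.8 CPM in BALB/c sham and was 15.5, 15.3, 14.02 and 15.5 CPM in SNI. The groups did not overlap. Shox2 fell by 26% (log2 fold change -0.43, SE 0.120, edgeR adjusted p = 0.0238). The call in BALB/c was lost without sham 56, SNI 49, SNI 65 or SNI 70, leaving Etv1 as the 1 member called, with an adjusted p of up to 0.0680. In B10.D2 sham it was 22.1, 21.6, 17.3, 15.9 and 13.5 CPM and in SNI 12.3, 9.01, 12, 12.7 and 11.2 CPM. Sham 88 was again the lowest sham, and SNI 76 the lowest SNI library, with no overlap between the groups. Shox2 fell by 35.6% (log2 fold change -0.63, SE 0.119, edgeR adjusted p = 0.00257), a call kept in all 25 alternatives.

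In rat, Shox2 was 25.9, 45.5, 27.2 and 27.2 CPM in sham 1, 2, 3 and 4, and 26.6, 16.3, 16.8 and 18.5 CPM in SNT 1, 2, 3 and 4. SNT 1 lay within the sham range and sham 2 lay above all others. Shox2 fell by 37.9% (log2 fold change -0.69, SE 0.222, edgeR adjusted p = 0.0440), and it was called in 6 of 13 alternatives. The start of mouse Shox2 is overlapped by Rsrc1, a splicing gene on the opposite strand, which stood at 55.5 ± 2.77 CPM in BALB/c sham and differed after SNI by -0.15 in BALB/c on the log2 scale (SE 0.042, edgeR adjusted p = 0.0252) and -0.09 in B10.D2 (SE 0.041, adjusted p = 0.240). The libraries mark strand, but the counter's strand setting is not given in the sources used here.

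**Figure D4:**
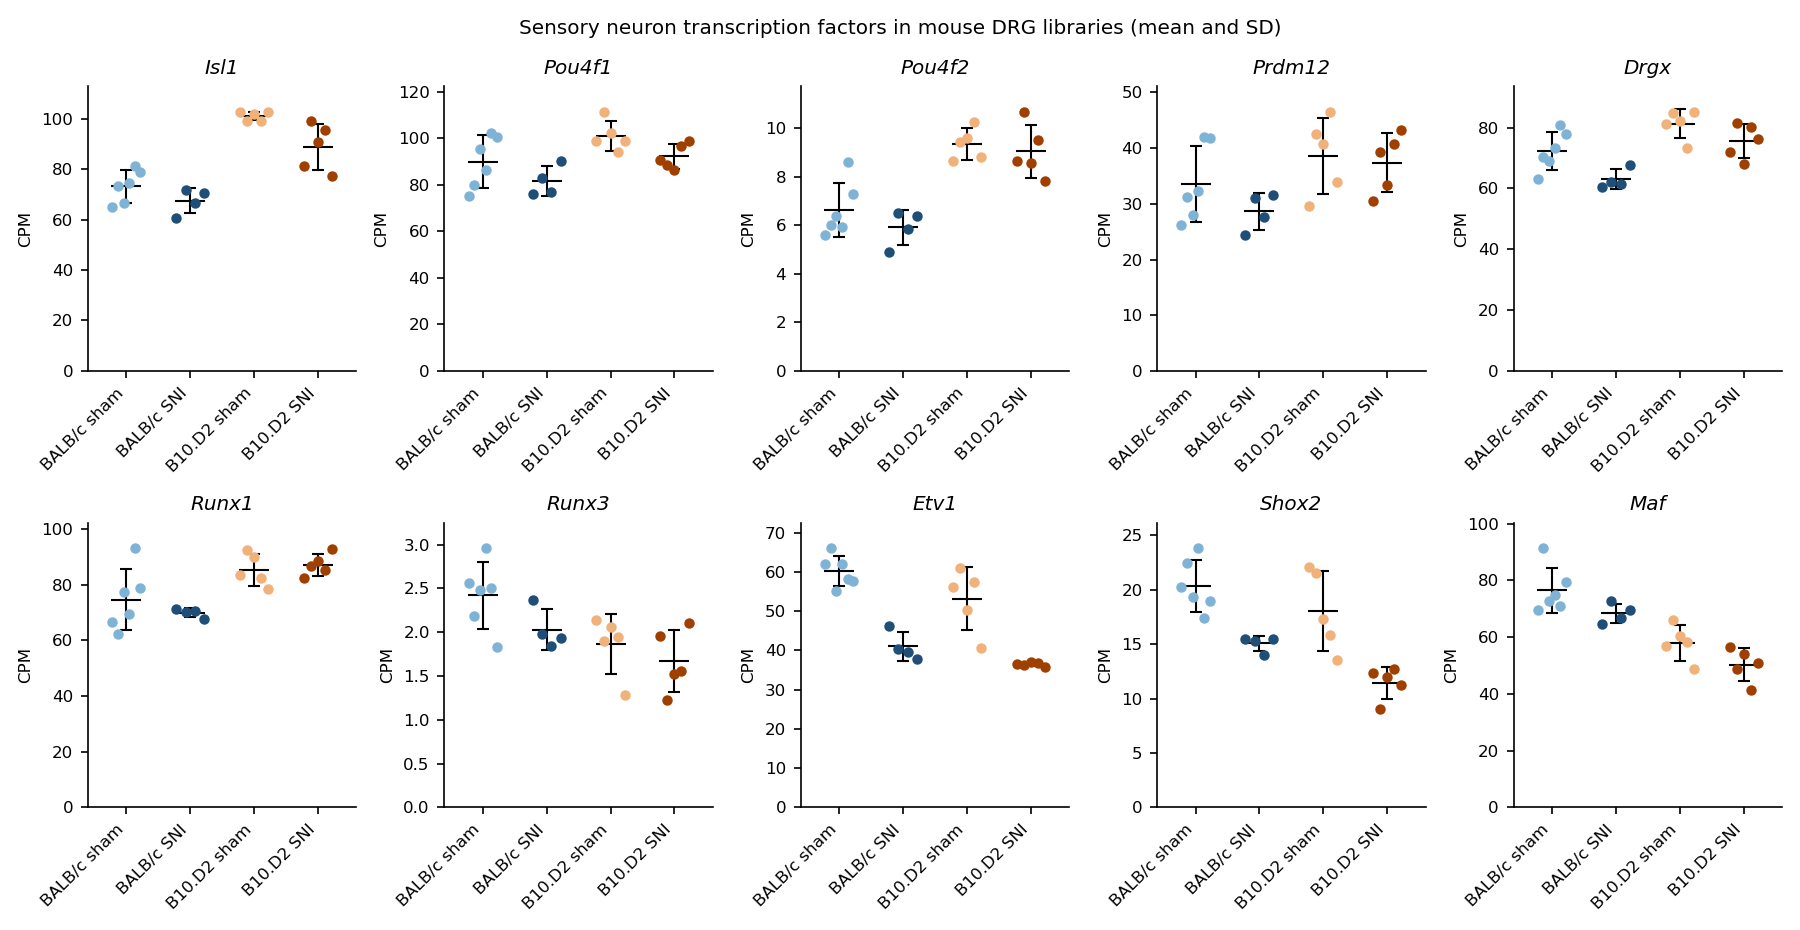
CPM of each gene by library in the 4 mouse groups, with the mean and SD as black bars and each axis starting at 0. Etv1 and Shox2 are lower in every SNI library than in every sham library of the same strain, and Isl1 is higher in every B10.D2 library than in every BALB/c library of the same surgery.

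Isl1 (ENSMUSG00000042258, chr13:116298281-116309689, minus strand), which keeps sensory neurons on their differentiation path, was called in rat and in neither mouse strain, a difference that was not tested. In BALB/c its log2 fold change was -0.12 (SE 0.071, edgeR adjusted p = 0.335), with sham libraries at 64.9 to 81.3 CPM and SNI at 60.7, 71.6, 66.7 and 70.6 CPM. In B10.D2 the sham libraries lay closely together, at 103, 99.1, 102, 99.3 and 103 CPM, and the SNI libraries at 81.4, 99.1, 90.6, 95.5 and 77.3 CPM. The highest SNI library lay just under the lowest sham, and the estimate, -0.20 on the log2 scale (SE 0.069), was not called (edgeR adjusted p = 0.127). In rat, Isl1 was 106, 143, 115 and 84.4 CPM in sham 1, 2, 3 and 4 and 86.6, 35.5, 35.8 and 52.6 CPM in SNT 1, 2, 3 and 4. SNT 1 lay above sham 4, and the other 3 SNT libraries lay below every sham. Isl1 fell by 53.1% in rat (log2 fold change -1.09, SE 0.283, edgeR adjusted p = 0.0215), and it was called in 8 of 13 alternatives.

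The POU factors did not pass the test after injury in mouse. Pou4f1 (ENSMUSG00000048349, chr14:104461676-104467999, minus strand) stood at 89.97 ± 11.3 CPM in BALB/c sham (SD, n = 6) and 81.6 ± 6.52 in SNI (n = 4), and at 101 ± 6.46 in B10.D2 sham (n = 5) and 92.2 ± 5.34 in SNI (n = 5). Its log2 fold changes were -0.14 (SE 0.079, edgeR adjusted p = 0.296) and -0.13 (SE 0.077, adjusted p = 0.439). Pou4f2 (ENSMUSG00000031688, chr8:78433010-78436645, minus strand) differed by -0.17 in BALB/c (SE 0.110) and -0.07 in B10.D2 (SE 0.105), with edgeR adjusted p-values of 0.403 and 0.801. For both genes the injured and sham libraries overlapped in each strain.

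Of the nociceptor lineage factors, Prdm12 (ENSMUSG00000079466, chr2:31640037-31655795, plus strand), a PR domain regulator without which nociceptors do not form, overlapped between sham and SNI in both mouse strains. Its log2 fold change was -0.23 (SE 0.144, edgeR adjusted p = 0.369) in BALB/c and -0.05 (SE 0.139, adjusted p = 0.910) in B10.D2. In rat it was 32.0, 53.4, 39.3 and 26.8 CPM in sham 1, 2, 3 and 4, and 29.0, 11.5, 6.67 and 12.5 CPM in SNT 1, 2, 3 and 4. SNT 1 lay within the sham range and the other 3 lay below it. Prdm12 fell by 60.7% (log2 fold change -1.35, SE 0.396, edgeR adjusted p = 0.0325), the largest estimate among the 5 members tested in rat. Without sham 4 and SNT 1, the lowest sham and the highest SNT library, it was -2.02 (edgeR adjusted p = 0.00031), a difference widened by that choice. Prdm12 was called in 6 of 13 alternatives. Drgx (ENSMUSG00000041730, chr14:32599407-32649246, plus strand), needed for nociceptor projections to the dorsal horn, ran from 63.1 to 80.8 CPM in BALB/c sham and was 60.4, 62.2, 61.6 and 67.7 CPM in SNI, so that the groups overlapped. Its log2 fold change was -0.20 (SE 0.065, edgeR adjusted p = 0.0565) in BALB/c, which 5 of 25 alternatives called, and -0.10 (SE 0.064, adjusted p = 0.480) in B10.D2.

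Neither RUNX factor was called after injury. Runx1 (ENSMUSG00000022952, chr16:92601466-92826149, minus strand) stood at 74.6 ± 11.01 CPM in BALB/c sham and 69.9 ± 1.64 in SNI, and at 85.4 ± 5.70 in B10.D2 sham and 87.1 ± 3.88 in SNI. Its log2 fold changes were -0.09 (SE 0.078, edgeR adjusted p = 0.535) and 0.02 (SE 0.076, adjusted p = 0.940). Runx3 (ENSMUSG00000070691, chr4:135120652-135177990, plus strand) differed by -0.25 (SE 0.165, edgeR adjusted p = 0.387) and -0.16 (SE 0.166, adjusted p = 0.697), at 1.23 to 2.96 CPM. These were the largest SE of the 10 members in both strains. In rat, Runx3 was 3.15, 5.73, 2.85 and 3.91 CPM in sham 1, 2, 3 and 4 and 5.88, 6.10, 5.89 and 5.37 CPM in SNT 1, 2, 3 and 4. Sham 2 lay inside the SNT range, and the log2 fold change of 0.56 (SE 0.225) was not called (edgeR adjusted p = 0.0857). Without sham 2 it was 0.83 and called (adjusted p = 0.0335).

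Maf (ENSMUSG00000055435, chr8:115682942-115707794, minus strand), a leucine zipper factor of touch receptors, was not called in either strain. Its log2 estimate was -0.16 (SE 0.087, edgeR adjusted p = 0.275) for BALB/c and -0.21 (SE 0.087, adjusted p = 0.200) for B10.D2. Sham and SNI libraries overlapped in both strains.

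**Figure D5:**
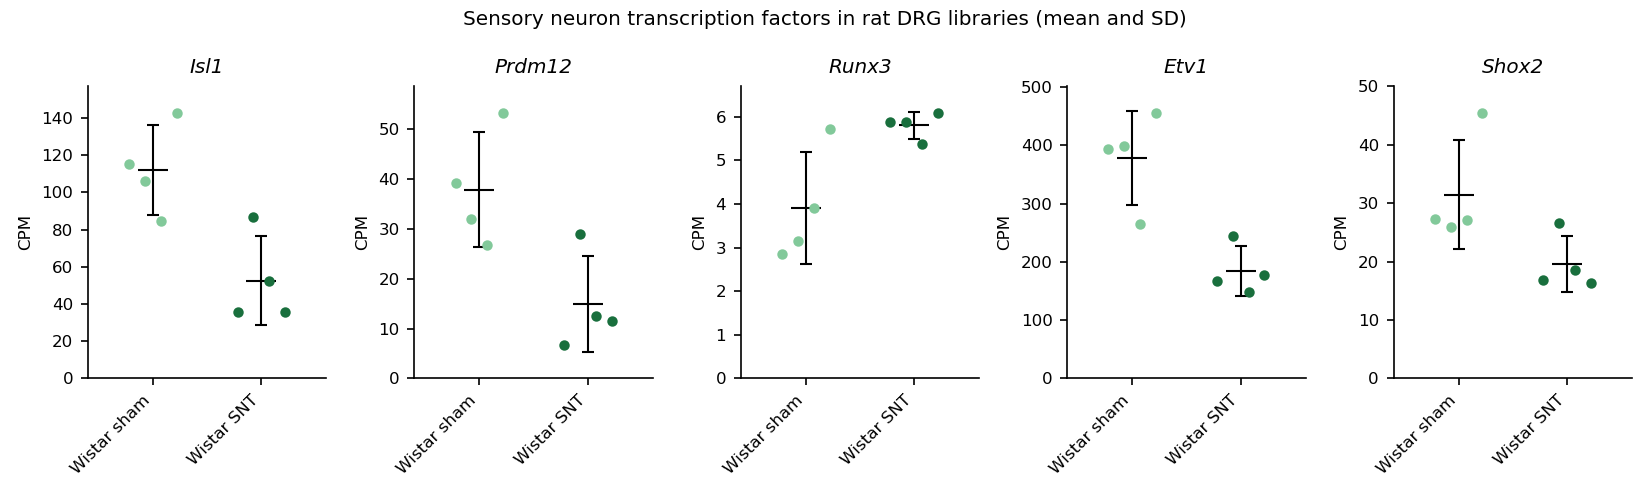
CPM of the 5 members counted in rat, by library, in sham and SNT, with the mean and SD as black bars and each axis starting at 0. Etv1 does not overlap between groups, Isl1, Prdm12 and Shox2 overlap through SNT 1, and Runx3 is at 2.85 to 5.73 CPM in sham and 5.37 to 6.10 CPM in SNT.

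Because each mouse group held males and females, the changes were also set out within sex. The mean log2 CPM of Etv1 differed between SNI and sham by -0.56 in BALB/c males and -0.55 in BALB/c females. In B10.D2 it differed by -0.52 in males and -0.55 in females. Each subset held 2 or 3 libraries a side. Shox2 differed by -0.40, -0.45, -0.64 and -0.59 in the same order. Because the whole groups did not overlap for these genes, the subsets could not overlap either. No member was called between females and males (0 of 10, with 0.243% of all features called), none had an unadjusted p under 0.05, and none was called in 23 alternatives, DESeq2 included.

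Whether injury acted differently in the strains was tested as the interaction of strain and surgery. No member was called (0 of 10, with 0.0243% of all features called), none had an unadjusted p under 0.05 and none was called in 24 alternatives, DESeq2 included. The differences between the strains in the log2 fold change ran from -0.20 for Shox2 (SE 0.168) to 0.18 for Prdm12 (SE 0.199), and that of Etv1 was 0.02 (SE 0.117).

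Levels after sham surgery were also compared between the strains. In B10.D2 Isl1 and Pou4f2 were higher and Maf was lower than in BALB/c, so that 3 of 10 members were called, where 21.6% of all features were called. That count is near the share over all features, so it does not set the members apart. Isl1 was at 64.9 to 81.3 CPM (median 73.9) in BALB/c sham and at 99.1 to 103 CPM in B10.D2 sham, 38.6% higher (log2 difference 0.47, SE 0.066, edgeR adjusted p = 1.28e-05). Pou4f2 ran from 5.60 through a median of 6.19 to 8.60 CPM in BALB/c sham and was 8.65, 9.44, 9.59, 10.2 and 8.81 CPM in B10.D2 sham (log2 difference 0.51, SE 0.101, edgeR adjusted p = 0.00074). Maf ran from 69.6 through 73.8 to 91.3 CPM in BALB/c sham and was 56.9, 66.1, 60.5, 58.3 and 48.6 CPM in B10.D2 sham (log2 difference -0.40, SE 0.082, edgeR adjusted p = 0.00113). None of these 3 genes overlapped between the strains, but the share of all features without overlap is not given here. Each of the 3 was called in all 24 alternatives. After SNI the same genes again did not overlap between the strains, with Isl1 at 60.7 to 71.6 CPM in BALB/c and 77.3 to 99.1 CPM in B10.D2. Runx1 (0.20, SE 0.073, adjusted p = 0.0519) and Drgx (0.16, SE 0.061, adjusted p = 0.0593) missed the threshold. Runx1 was called in 8 of 24 alternatives, DESeq2 among them, and Drgx in 3. The count rose to 6 without BALB/c sham 57 or 71 and to 5 without B10.D2 sham 77. Those 2 BALB/c shams had the highest Isl1, Pou4f1, Pou4f2, Prdm12 and Drgx of their group, with Prdm12 at 42.0 and 41.8 CPM against 26.2 to 32.3 CPM in the other 4. Beside these strain differences, macrophage markers were higher in B10.D2 sham for 5 of 10 (3 to 8 over the alternatives, median log2 difference 0.48), and their part in the strain differences was not tested.

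Other transcription factors of sensory neurons were examined as a wider list of 34, of which 30 were tested in mouse and 15 in rat. In BALB/c SNI 7 of 30 fell and 1 rose, with a median log2 fold change of -0.11. Of all features 9.69% were called there and 4.87% were called lower. In B10.D2 SNI 4 of 30 fell and none rose, with a median of -0.07. Of all features 4.58% were called there and 2.48% were called lower. Over the alternatives, 5 to 10 of the list were called in BALB/c and 2 to 6 in B10.D2. Mafa, a relative of Maf in touch neurons, fell in both strains (log2 fold change -0.71, SE 0.161, edgeR adjusted p = 0.00646 in BALB/c, and -0.88, SE 0.157, adjusted p = 0.00157 in B10.D2). So did the homeodomain factor Meis2 (-0.34, SE 0.078, adjusted p = 0.00702, and -0.47, SE 0.076, adjusted p = 0.00057). Cbfb, a protein partner of Runx1 and Runx3, fell in both strains as well (-0.16, SE 0.048, adjusted p = 0.0397, and -0.19, SE 0.048, adjusted p = 0.0233). Rorb, a nuclear receptor at 0.0705 CPM in BALB/c sham and 0.244 CPM in SNI, rose (1.70, SE 0.442, adjusted p = 0.0171). In rat, 2 of 15 fell and none rose: Onecut1 (-1.78, SE 0.339, edgeR adjusted p = 0.0114) and Six4 (-1.28, SE 0.284, adjusted p = 0.0143). That is no more than the share over all features in rat, of which 15.1% were called lower. Without sham 4 and SNT 1, 7 of 15 fell and 3 rose, where 22.8% of all features were called lower and 21.1% higher. In sham, 5 of 30 were higher and 2 lower in B10.D2 than in BALB/c, with Pou4f3, the third POU4 factor, higher (0.38, SE 0.108, adjusted p = 0.0145). That count is near the share over all features, of which 21.6% were called. None of this list was called by sex or in the interaction.

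Genes known to depend on the 10 factors in sensory neurons, such as neurotrophin receptors, ion channels and G protein-coupled receptors, formed a list of 25, all tested in mouse and 18 tested in rat. In BALB/c SNI 5 fell and 1 rose (median log2 fold change -0.09), and in B10.D2 SNI 3 fell and 1 rose (median -0.09). Of all features, 9.69% were called in BALB/c and 4.58% in B10.D2, with 4.87% and 2.48% called lower. Over the alternatives, 4 to 9 were called in BALB/c and 3 to 4 in B10.D2. Pvalb, a calcium buffer of proprioceptors, was 97.7, 32.0, 34.4 and 32.2 CPM in BALB/c SNI and 57 to 151 CPM in BALB/c sham. It fell in BALB/c (-0.95, SE 0.275, edgeR adjusted p = 0.0323), although SNI 49 lay within the sham range, and the call held in 18 of 25 alternatives. In B10.D2 it was 43.2 to 84.7 CPM in sham and 21.7 to 24.5 CPM in SNI, without overlap (-1.26, SE 0.275, adjusted p = 0.00852). BALB/c SNI 49 also had the highest Etv1 of its group. Gfra1, a receptor subunit for glial cell line-derived neurotrophic factor, rose in both strains, by 0.41 (SE 0.077, adjusted p = 0.00125) in BALB/c and 0.45 (SE 0.077, adjusted p = 0.00099) in B10.D2. B10.D2 SNI 76, at 177 CPM, remained within the sham range of Gfra1.

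In rat, 10 of the 18 fell and none rose, with a median log2 fold change of -1.19, and without sham 4 and SNT 1 all 18 fell, as did 22.8% of all features against 15.1% with every library. Over the 13 alternatives, the run without sham 4 and SNT 1 included, the counts went from 1 to 18. Pvalb was 163 to 282 CPM in sham and 85.2, 3.48, 9.39 and 13.0 CPM in SNT 1, 2, 3 and 4, without overlap (-3.11, SE 0.813, edgeR adjusted p = 0.0223). Mrgprb4, a receptor of touch-sensing unmyelinated neurons, was 16.7 to 48.5 CPM in sham and 10.3, 0.163, 0.167 and 0.524 CPM in SNT 1, 2, 3 and 4 (-3.69, SE 1.002, adjusted p = 0.0251). In both genes SNT 1 was the highest SNT library and sham 4 the lowest sham. In sham mice, 9 of 25 differed between the strains, 5 higher and 4 lower in B10.D2, with Mrgprd, a receptor of non-peptidergic nociceptors, lower (-0.69, SE 0.063, adjusted p = 3.2e-08) and Mrgprb4 higher (0.89, SE 0.113, adjusted p = 3.2e-06). Of all features 21.6% were called in that comparison.

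In whole ganglia, fewer neurons of a type and less RNA per neuron cannot be told apart, so markers of the cells present are given beside these falls. Of all features, 9.69% were called after injury in BALB/c, 4.58% in B10.D2 and 27.4% in rat. General neuron markers fell for 4 of 11 in each mouse strain and rose for none, with log2 medians of -0.22 (BALB/c) and -0.15 (B10.D2), and those that fell were the neurofilaments Nefl, Nefm and Nefh and the synaptic gene Snap25. The summed level of all 11 was 13363 to 15376 CPM in BALB/c sham and 11273 to 13166 CPM in SNI, and 14006 to 16454 CPM and 11181 to 14060 CPM in B10.D2. Nefl alone averaged 5260 CPM in B10.D2 sham and 3694 CPM in SNI, so these sums rest in large part on genes that fell. In rat 2 of 4 fell (Avil and Elavl4), and Avil is also in the list of dependent genes above. The rat sums overlapped, at 4814 to 7047 CPM in sham and 3847 to 6472 CPM in SNT. Injured neuron markers rose for all 10 in BALB/c, 9 of 10 in B10.D2 and 6 of 7 tested in rat, where Atf3 and Gap43 are listed at 0. Macrophage markers rose for 3 of 10 in BALB/c (1 to 7 over the alternatives), none in B10.D2 (0 to 2) and 1 of 6 in rat (1 to 5), with sums of 88.6 to 220 CPM in BALB/c sham, 161 to 252 in SNI, 183 to 214 in B10.D2 sham and 191 to 314 in SNI. In rat they summed to 148 to 564 CPM in sham, the highest in sham 4, and 477 to 693 CPM in SNT. Lymphocyte markers rose for 2 of 5 in rat, Cd4 (log2 fold change 1.27) and Cd3e (1.998), with sums of 35.0 to 87.3 CPM in sham and 104 to 155 CPM in SNT. These sums rest mostly on Cd4, which averaged 47.3 CPM in sham and 114 CPM in SNT. Cd3e averaged 0.405 CPM in sham and 1.67 CPM in SNT. Of Schwann cell markers 1 of 3 rose in rat (Mag, 1.55), of vessel markers 1 of 2 (Tek, 0.63) and of fibroblast markers 2 of 3. The part of these cell changes in the falls of Etv1, Shox2, Isl1 and Prdm12, or in the Runx3 estimate in rat, was not tested.

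Within groups, the members varied together in part. Over the 20 mouse libraries, with the mean of each strain and surgery group removed, Etv1 and Shox2 had a Pearson r of 0.64, Isl1 and Pou4f2 0.78, Drgx and Pou4f1 0.74, Pou4f1 and Runx1 0.72, and Isl1 and Runx3 -0.57. These are descriptions, since both values of a pair come from the same library, dissection and scaling. The features most like each member among 16556 with a mean of at least 1 CPM were, for Etv1, the assembled long noncoding RNA LncRNA2028 (r = 0.90) and the calcium sensor Vsnl1 (0.88), and, for Shox2, the calcium-binding gene Cabp7 (0.91) and the kinase gene Stk39 (0.89). For Isl1 they were Slc34a2 and Slc7a4 (0.87 each), for Pou4f1 Nptxr (0.93) and Nacad (0.92), and for Pou4f2 Camsap2 (0.92) and Id4 (0.88). Prdm12 was most like Camk2a and Cbarp (0.92 each), Drgx like Kctd8 (0.91) and Lrrn4 (0.90), Runx1 like LncRNA361 (0.88) and Dusp8 (0.87), Runx3 like Fbxo46 (0.85) and Ccdc114 (0.80), and Maf like Dag1 (0.85) and Snx3 (0.83).

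The study assembled long noncoding RNAs from DRG reads, and 5 of them lay within 50 kb of a member in mouse. LncRNA2684, at chr14:104483290-104486434 and 15291 bases from Pou4f1 on the opposite strand, stood at 4.54 ± 0.761 CPM in BALB/c sham. LncRNA1602 lay 7246 bases from Pou4f2 on the opposite strand, at 1.09 ± 0.118 CPM in BALB/c sham. Beside Isl1 there were LncRNA2559, 3758 bases away on the opposite strand, at 0.841 ± 0.196 CPM, and LncRNA6702, 1075 bases away on the same strand, at 6.53 ± 1.25 CPM. None of these 4 was called after injury in either strain or between the strains. LncRNA5565, 463 bases from Maf on the opposite strand, was lower in B10.D2 than in BALB/c after sham surgery, as Maf was, at 0.953 ± 0.233 against 1.51 ± 0.335 CPM (log2 difference -0.68, SE 0.195, edgeR adjusted p = 0.0143). After injury it did not pass the test (adjusted p = 0.682 and 0.998). Annotated genes overlap 5 members on the opposite strand. Gm13425 over Prdm12 stood at 31.0 ± 5.32 CPM in BALB/c sham and was not called after injury. Prdm12 itself was at 33.6 ± 6.76 CPM, and neither value is corrected for length. As for Shox2 and Rsrc1, the counter's strand setting is not given for this pair. Gm26626 over Runx1, Gm16224 over Runx3 and Gm15655 over Maf each averaged at most 0.286 CPM in any group, and Rsrc1 over Shox2 is given above.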

How the data were processed

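The 20 mouse and 8 rat libraries were strand-specific. Per the study's methods, reads were aligned with STAR to mm10 (mouse) and rn6 (rat) and counted with HTSeq in its intersection-nonempty mode over Ensembl genes (GRCm38.87 in mouse) and assembled long noncoding RNAs. The deposited tables hold raw counts per feature, which are whole numbers. The authors' result tables of DESeq2 log2 fold changes and p-values were used only for their gene symbols. Groups came from the sample labels.

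Counts were fitted with edgeR 4.0.16 in R 4.3.3 (TMM factors, filterByExpr, quasi-likelihood F test, two-sided, Benjamini-Hochberg over all features tested), with strain by surgery groups and sex in mouse and surgery alone in rat. Standard errors are the absolute log2 fold change over the square root of F. CPM are counts over the library total times its TMM factor (0.974 to 1.03 in mouse, 0.931 to 1.04 in rat). With 1 animal or 1 pool per library, p-values measure the spread between these. Mouse positions and exon lengths came from GENCODE M21. No rat annotation was used.

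Alternatives were RLE normalization, no filter on low counts, DESeq2 1.42.0, each library left out, no sex term, each strain alone and a block on the number in the rat titles. Leaving out rat sham 4 and SNT 1 together was chosen after seeing the data, and it is counted among the 13 rat alternatives. The members and lists were chosen with earlier results of these data known. All members are named. From each list, the called genes with the 2 largest rises and the 2 largest falls could be named. Cbfb, Snap25, Meis2 and Nefl in BALB/c, Nefm in B10.D2 and Pvalb in rat were named beyond this after their values were seen. Rat libraries were numbered 1 to 4 within their group in accession order. The fits were tested on simulated counts with known changes. Of 1.5-fold changes, 67% were called in BALB/c, 64% in B10.D2 and 14% in rat. Of 2.25-fold changes, 91% were called in BALB/c, 95% in B10.D2 and 79% in rat. A member that was not called can therefore still have changed, above all in rat.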

Additional observations from a re-analysis of the deposited data

Results flagged for a closer look

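Of 50 groups of member values examined for a sample far from the others, 3 were marked, about what chance gives at 1 group in 20. Runx3 in B10.D2 sham 88 was 1.28 CPM, while the other B10.D2 shams were at 1.90 to 2.13 CPM. Shox2 in BALB/c SNI 65 was 14.02 CPM, while the others were at 15.3 to 15.5 CPM. Shox2 in rat sham 2 was 45.5 CPM, while the other shams were at 25.9 to 27.2 CPM.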

How the results depend on the processing

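Of 134 recomputed counts of called members, 120 were within 1.5 times the reported count. The others were all from leaving out 1 library, apart from the block in rat. Leaving out 1 library gave 1 to 3 members called in BALB/c SNI, 3 to 6 between strains in sham and 1 to 4 in rat. The numbers shared by rat sham and SNT titles did not pair the libraries: deviations from the group means of same-numbered libraries correlated at 0.05, -0.29, -0.11 and -0.09, and not every library correlated best with its own number. With the replicate block, 2 members were called in rat (Etv1 and Isl1), and 2558 of all features against 3753 without it. In mouse the groups shared no numbers. Single estimates near 0 changed sign in 27 of 1275 recomputed values, all by leaving out 1 library and none of them called. Leaving out 1 library moved these log2 differences over the following ranges. After SNI in B10.D2, Prdm12 was at -0.13 to 0.030 and Runx1 at -0.022 to 0.055. Between females and males, Maf was at -0.012 to 0.069, Pou4f1 at -0.050 to 0.0065 and Prdm12 at -0.015 to 0.081. In the strain by injury interaction, Etv1 was at -0.062 to 0.076, Maf at -0.12 to 0.025, Pou4f1 at -0.027 to 0.073 and Runx3 at -0.036 to 0.18. Runx3 rested on 38 to 112 counts per rat library.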

Other observations

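Markers of other cells gave these values. Satellite glia markers rose for 1 of 6 in each mouse strain after SNI and summed to 2271 to 2582 CPM in BALB/c sham and 2402 to 2937 CPM in SNI. Schwann cell markers were called for none of 6 in either strain by edgeR. Fibroblast markers rose for 1 of 5 in each strain and for 2 of 3 in rat, where they summed to 2976 to 5330 CPM in sham and 6619 to 10775 CPM in SNT. Vessel markers were lower in B10.D2 than in BALB/c sham for 4 of 6, with none called after SNI by edgeR. Lymphocyte markers were higher in B10.D2 than in BALB/c sham for 4 of 9.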
